A study of Mus musculus with 2 samples.

Results

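Immune checkpoint genes were examined in single-nucleus RNA-seq data from mouse hearts. The 10 genes were chosen by symbol among the 32589 genes of the count matrices, and all 10 were found. They are Pdcd1, which encodes PD-1, its ligand genes Cd274 (PD-L1) and Pdcd1lg2 (PD-L2), the receptor genes Ctla4, Havcr2 (TIM-3), Lag3 and Tigit, and the B7 family genes Cd80, Cd86 and Cd276 (B7-H3). The hearts came from male C57BL/6 mice that were 8 weeks old at the start. The PD-1 inhibitor group received an anti-mouse PD-1 antibody at 5 mg/kg by intraperitoneal injection on days 1 and 14 of a 28-day cycle, and the control group received PBS on the same days. Each group was made into 1 library, and the number of hearts in a library is not given in the sources used here. With 1 library per group no test was possible, and the spread between hearts is unknown. Pairs of values are given in the order control, PD-1 inhibitor unless they are named. Intervals are at 95% and reflect counting error alone, and each of them treats molecules as independent although a nucleus can hold several.

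T cells carry inhibitory receptors that dampen their response when a ligand on another cell engages them. PD-1 is engaged by PD-L1 and PD-L2, and interferon gamma is a known inducer of PD-L1. CTLA-4 competes with the activating receptor CD28 for CD80 and CD86, which antigen-presenting cells display. TIM-3, LAG-3 and TIGIT are further inhibitory receptors with ligands of their own, and antibodies to several of these receptors are used against tumours and can injure the heart.

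The loci were taken from GENCODE vM21 on GRCm38, the build named in the submitters' processing notes. Cd274 lies on chromosome 19 at 29367455 to 29388095, and Pdcd1lg2 follows on the same strand after a gap of 22.8 kb. Ctla4 lies on chromosome 1 at 60887000 to 60915832. Its protein-coding transcript starts at 60909025, which is 22.0 kb inside the annotated gene, because a non-coding transcript of the gene starts further upstream. The files give one count per gene, so a molecule counted for Ctla4 cannot be placed at either start. The processed pseudogene Rpl18-ps1 lies on the same strand within the annotated span, at 60900898 to 60901422, upstream of the protein-coding start, and has no value here. Whether reads in introns were counted is not given in the sources used here. RefSeq promoter windows on GRCm38.p6, which run from 250 bases before to 50 bases after a start, were found for 8 of the 10 genes. Those of both PD-1 ligands are shown because the neighbouring genes had very unlike levels, and that of Ctla4 because of its unusual distribution over cell types. Capitals mark a GC box (GGGCGG) or a TATA box (TATAAA) on either strand. The windows lie at chr19:29367188-29367487, chr19:29410669-29410968 and chr1:60908775-60909074, all on the plus strand.
Cd274: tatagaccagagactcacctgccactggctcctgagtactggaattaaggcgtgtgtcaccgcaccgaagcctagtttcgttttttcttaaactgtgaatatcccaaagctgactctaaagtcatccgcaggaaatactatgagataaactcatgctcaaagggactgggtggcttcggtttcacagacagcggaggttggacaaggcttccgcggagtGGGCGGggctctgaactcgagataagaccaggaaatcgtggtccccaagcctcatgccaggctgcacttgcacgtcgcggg
Pdcd1lg2: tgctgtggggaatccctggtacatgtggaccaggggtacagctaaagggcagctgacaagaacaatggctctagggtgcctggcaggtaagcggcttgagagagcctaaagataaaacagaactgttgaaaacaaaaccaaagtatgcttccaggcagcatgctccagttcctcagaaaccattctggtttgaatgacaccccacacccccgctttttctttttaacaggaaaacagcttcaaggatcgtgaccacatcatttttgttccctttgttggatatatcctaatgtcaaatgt
Ctla4: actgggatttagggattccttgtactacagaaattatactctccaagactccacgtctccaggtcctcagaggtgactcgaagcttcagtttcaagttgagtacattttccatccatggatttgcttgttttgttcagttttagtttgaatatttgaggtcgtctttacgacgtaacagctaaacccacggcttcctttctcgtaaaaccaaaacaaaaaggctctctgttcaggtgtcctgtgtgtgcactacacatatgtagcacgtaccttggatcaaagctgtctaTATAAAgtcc

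A GC box was present 1 time in the Cd274 window and 0 times in that of Pdcd1lg2, and 35.7% of all 32851 RefSeq windows held at least 1. Bases G and C made up 52.7% of the Cd274 window, 46.0% of the Pdcd1lg2 window and 42.0% of the Ctla4 window. The TATA box of the Ctla4 window begins 40 bases after the start, and 13.6% of all windows held these letters. The letters of the interferon-stimulated response element (TTTC followed after 2 bases by TTTC, in 3.44% of all windows) and of the gamma-activated site (TTCNNNGAA, in 8.3%) were matched in 0 of the 8 windows of checkpoint genes. A match describes letters and is not evidence of a working site.

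Counts are unique molecular identifiers (UMIs), of which each captured transcript molecule carries 1. The control library held 10197 barcodes with a median of 1020 UMIs, and the PD-1 inhibitor library held 7967 with a median of 1066. After removal of nuclei rich in mitochondrial RNA and of doublets, 9482 and 7619 nuclei remained. The libraries shared 48 barcodes. Clusters were named from marker genes, 20 of 21 clusters received a name, and the names mean that a cluster is like that cell type. Dendritic cells, adipocytes and subtypes of endothelial cells (ECs) were kept apart. Adipocyte nuclei numbered 154 and 16, T cells 234 and 189, B cells 176 and 79, dendritic cells 148 and 83, and macrophages 1103 and 798. Levels are UMIs per 1000000 UMIs of a cell type (CPM). A log2 ratio sets the level with PD-1 inhibitor over that of the control, after 0.5 UMI was added to each sum of UMIs.

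The 10 genes were sparse, and each had its molecules in its own set of cell types. Cd274 was highest in adipocytes and capillary ECs, Cd80 and Cd86 in antigen-presenting cells, Havcr2 in dendritic cells, macrophages and T cells, Lag3, Tigit and Pdcd1 in T cells, and Ctla4 in T cells and cardiomyocytes. Over all nuclei the UMIs were 528 and 291 for Cd274, 469 and 289 for Cd86, 274 and 129 for Ctla4, and 244 and 159 for Cd80. Cd276 had 106 and 82, Havcr2 102 and 49, and Lag3 53 and 50. The 3 sparsest genes were Pdcd1lg2 with 15 and 8, Pdcd1 with 6 and 11 and Tigit with 5 and 10. Per kilobase of gene span, Cd274 had the highest level over all nuclei, at 2.12 and 1.37 CPM per kb, and Pdcd1lg2 the lowest, at 0.021 and 0.013. UMIs need not scale with the span, since the use of reads in introns is not given. The span of Ctla4 also holds 22.0 kb upstream of its protein-coding start.

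**Figure D1:**
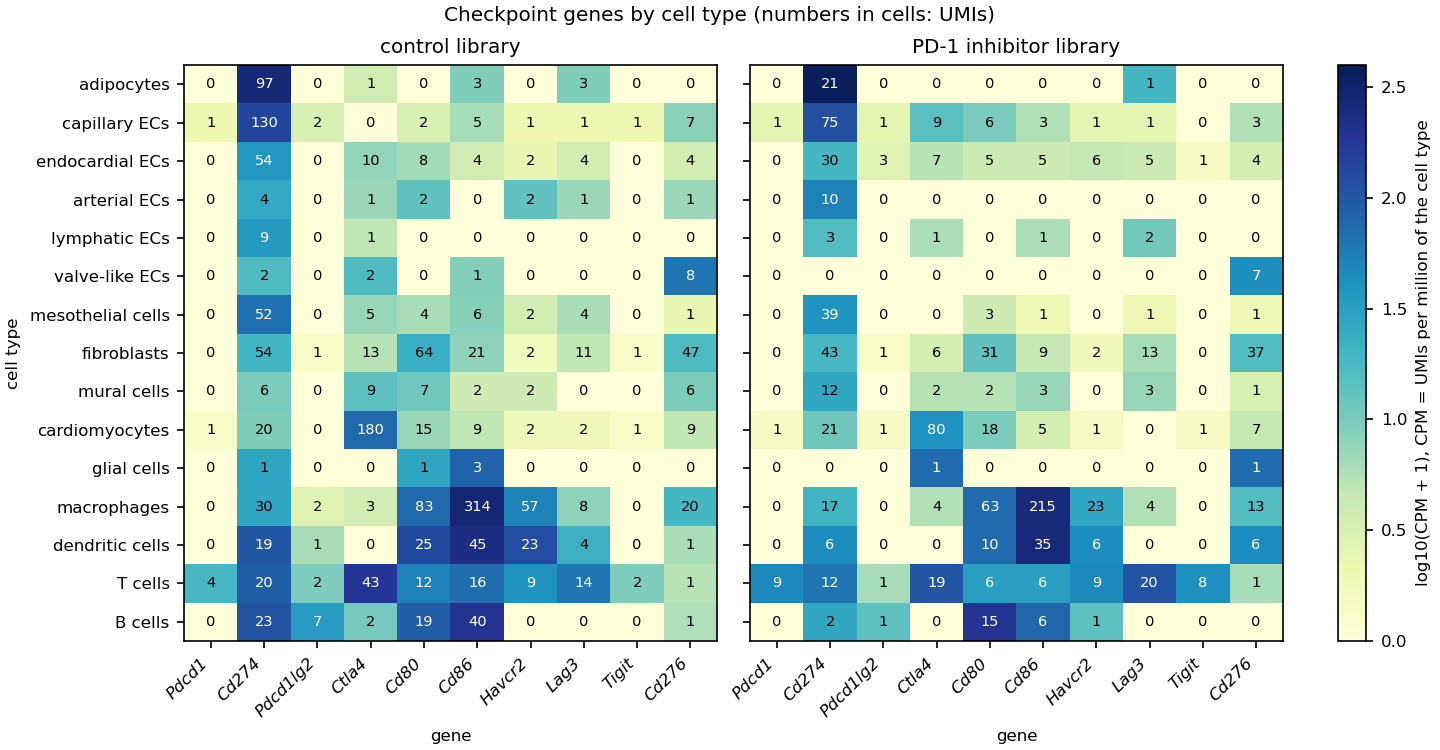
Level of each checkpoint gene (columns) in each cell type (rows) in the control library (left) and the PD-1 inhibitor library (right). Colour shows log10 of CPM plus 1 and the printed numbers are UMIs. Cd274 reached 97 and 21 UMIs in adipocytes, Cd86 314 and 215 in macrophages, and Ctla4 180 and 80 in cardiomyocytes, whereas Pdcd1 had at most 4 and 9 UMIs in any cell type, both in T cells.

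A gene was called enriched in a cell type when its CPM was at least 2-fold that of all other nuclei in both libraries, and 7 of the 10 genes had the 50 UMIs needed for this. T cells were enriched for 5 of the 7 (Cd274, Ctla4, Havcr2, Lag3 and Cd80), where 9.28% of all 14365 genes were. With PD-1 inhibitor, 1 T-cell nucleus held 7 of their 12 Cd274 UMIs, and Cd80 had 6 UMIs in T cells. Whether these calls hold without single nuclei was not tested. Macrophages were enriched for 4 of 7 (Havcr2, Cd80, Cd86 and Cd276; 9.52% of all genes), dendritic cells for 3 of 7 (Havcr2, Cd80 and Cd86; 9.69%) and B cells for 2 of 7 (Cd80 and Cd86; 7.86%). Outside the immune cells, the only enriched genes were Cd274 in adipocytes (6.52% of all genes) and capillary ECs (5.83%), Ctla4 in cardiomyocytes (9.98%), and Cd276 in fibroblasts (7.3%) and valve-like ECs (5.07%). None of the 7 was enriched in endocardial ECs (4.45% of all genes), arterial ECs (4.41%), lymphatic ECs (5.17%), mesothelial cells (7.57%), mural cells (4.78%) or glial cells (3.95%).

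Pdcd1, the target of the antibody, had most of its few molecules in T cells. They held 4 of the 6 UMIs, in 3 nuclei, and 9 of the 11 UMIs, in 8 nuclei. These are shares of 1.28% (0.265% to 3.70%, Clopper-Pearson) and 4.23% (1.84% to 8.17%), whose intervals overlap. The other UMIs were 1 in a cardiomyocyte and 1 in a capillary EC of each library. Among 2802 and 2508 EC nuclei this is a share of 0.036% and 0.040%. Of the 1273 and 1081 cardiomyocyte nuclei it is 0.079% and 0.093%, with median depths of 1406 and 1428 UMIs against 846 and 884 in T cells. Macrophages had 0 UMIs in 1103 and 798 nuclei, which allows a share of nuclei with a UMI of up to 0.272% and 0.376%, and fibroblasts had 0 in 2466 and 1970 nuclei, which allows up to 0.122% and 0.152%. These limits take 3 counts as the floor and concern nuclei with a UMI, not nuclei that express the gene. Each of the 11 T-cell nuclei with a Pdcd1 UMI had UMIs of at least 2 of the 12 T-cell markers, while both cardiomyocyte nuclei had 0 and the capillary EC nuclei had 2 and 0. The T-cell cluster was named from these same markers, so for its nuclei this is no separate evidence.

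Cd274, which encodes the main ligand of PD-1, was highest in adipocytes and next highest in capillary ECs in both libraries. Adipocytes had 97 UMIs in 52 of 154 control nuclei, or 269 CPM (218 to 328, exact Poisson), and 21 UMIs in 9 of 16 PD-1 inhibitor nuclei, or 375 CPM (232 to 573). That was 7.29 and 14.2 times the level of all other nuclei. Capillary ECs had 130 UMIs (137 CPM, 115 to 163) and 75 UMIs (113 CPM, 89.3 to 142), 3.83 and 5.04 times that of all other nuclei. The adipocyte interval lay above that of capillary ECs in both libraries. Adipocyte nuclei were deep, with medians of 1916 and 2994 UMIs against 825 and 827 in capillary ECs. With every nucleus thinned to 500 UMIs, the share with a Cd274 UMI was 11.0% and 12.5% in adipocytes, 5.46% and 4.34% in capillary ECs, and 0.393% and 0.740% in cardiomyocytes.

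Other cell types held less Cd274. In the control library B cells, dendritic cells and T cells followed at 108, 97.6 and 86.6 CPM, and their intervals overlapped with that of capillary ECs. Mesothelial cells, which line the outer surface of the heart, had 66.3 CPM and endocardial ECs 36.4 CPM. Fibroblasts had 18.2 and 17.3 CPM, and cardiomyocytes 8.28 and 10.4 CPM. Before thinning, 1.54% and 1.42% of fibroblast nuclei and 0.681% and 1.21% of mural nuclei had a Cd274 UMI, against 1.26% and 1.20% of cardiomyocytes. Mural cells had 6 and 12 UMIs (8.79 CPM, 3.23 to 19.1, and 25.8 CPM, 13.3 to 45.05) at median depths of 965 and 963 UMIs, below the 1406 and 1428 of cardiomyocytes, and free RNA was not measured. Among the EC subtypes, capillary ECs (137 and 113 CPM) stood above endocardial ECs (36.4 and 17.9 CPM) with intervals that do not overlap in either library.

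**Figure D2:**
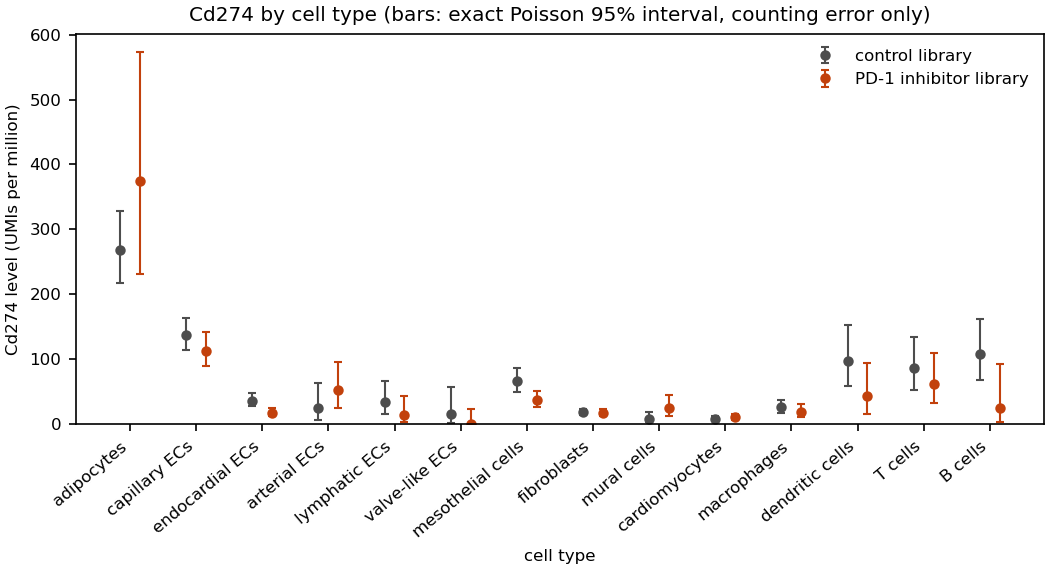
Cd274 level in CPM (vertical axis) by cell type, with the control library in grey and the PD-1 inhibitor library in orange. Points are sums over all nuclei of a type and bars are exact Poisson intervals. Adipocytes (269 and 375 CPM) and capillary ECs (137 and 113 CPM) were the 2 highest of the named types in both libraries, and endocardial ECs had 36.4 and 17.9 CPM.

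Between the libraries, Cd274 was lower with PD-1 inhibitor in endocardial ECs and mesothelial cells, and close to equal in fibroblasts. In endocardial ECs 54 and 30 UMIs were counted, and the log2 ratio was -1.02 (-1.72 to -0.36). In ECs as a whole it was -0.71 (-1.06 to -0.38) on 199 and 118 UMIs, where 6.55% of all genes were past 1.5-fold lower and 8.26% higher. With the EC subtypes weighted as in the control it was -0.45 (66.9 and 49.1 CPM), no longer past 1.5-fold. Capillary ECs, the subtype with the highest Cd274 level, made up 989 of 2802 and 692 of 2508 EC nuclei. In mesothelial cells the log2 ratio was -0.81 (-1.45 to -0.19) on 52 and 39 UMIs. This last difference was not seen after thinning to 500 UMIs, when 16 and 17 UMIs remained and the log2 ratio was 0.13. Mesothelial nuclei differed in depth between the libraries, with medians of 1310 and 1728 UMIs. Capillary ECs (-0.27, -0.70 to 0.15), fibroblasts (-0.07, -0.68 to 0.54), macrophages (-0.41, -1.38 to 0.47) and adipocytes (0.51, -0.28 to 1.17) had intervals that hold 0. In B cells the log2 ratio was -1.80 (-5.22 to -0.07) on 23 and 2 UMIs, the latter from 79 nuclei. After thinning it was -0.22 on 6 and 2 UMIs. The median depths of B-cell nuclei were 1004.5 and 745 UMIs.

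The whole-heart difference in Cd274 moved with the mix of nuclei. Over all nuclei the log2 ratio was -0.62 (-0.84 to -0.42). With the cell types of the PD-1 inhibitor library weighted as in the control library it was -0.21. Adipocytes alone gave 18.4% and 7.22% of all Cd274 UMIs. A treatment effect on the number of adipocyte nuclei and a difference between 2 dissections cannot be told apart with 1 library per group.

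Pdcd1lg2, the second PD-1 ligand gene, was near the floor everywhere. Control B cells had the most, with 7 UMIs in 5 of 176 nuclei, and B cells with PD-1 inhibitor had 1 UMI in 79 nuclei, where endocardial ECs had 3. All other cell types together had 8 and 7 UMIs. Cardiomyocytes had 0 and 1. The antisense gene A930007I19Rik overlaps Pdcd1lg2 and had 175 and 144 UMIs. Whether counting used the strand is not given in the sources used here, so molecules of these genes could have been exchanged.

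The UMIs of Ctla4 lay mainly in T cells and cardiomyocytes. T cells had 43 UMIs in 16 nuclei (186 CPM, 135 to 251) and 19 UMIs in 12 nuclei (99.3 CPM, 59.8 to 155). Cardiomyocytes had 180 UMIs in 116 nuclei (74.5 CPM, 64.0 to 86.2) and 80 UMIs in 60 nuclei (39.7 CPM, 31.5 to 49.4). They gave 65.7% and 62.0% of all Ctla4 UMIs, and where in the gene's span these molecules lie was not tested. The level was 9.54 and 9.08 times that of all other nuclei in T cells and 7.65 and 6.68 times in cardiomyocytes. Macrophages, with 2.65 and 4.63 CPM, and fibroblasts, with 4.37 and 2.42 CPM, were far lower.

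Transcripts of the 12 T-cell markers, which do not include Cd28, were about as rare in cardiomyocyte nuclei with Ctla4 as in those without. Of the cardiomyocyte nuclei with a Ctla4 UMI, 4 of 116 (3.45%) and 2 of 60 (3.33%) also had a UMI of any of the 12 T-cell markers, close to the 3.72% and 3.23% of cardiomyocyte nuclei without Ctla4. The T-cell markers summed to 26.5 and 20.4 CPM in all cardiomyocytes, against 7221 and 7567 CPM in T cells, and 12 and 11 of the 12 had a UMI there. The T-cell co-receptor gene Icos, the next gene downstream of Ctla4, had 1 and 0 UMIs in cardiomyocytes and 52 and 38 in T cells. Cd28, the activating counterpart of Ctla4 on the same strand 114 kb upstream, was also found in both cell types. It had 120 and 52 UMIs in cardiomyocytes (49.7 and 25.8 CPM) and 45 and 37 in T cells (195 and 193 CPM). Cd28 was found in 21 of 116 (18.1%) and 5 of 60 (8.33%) cardiomyocyte nuclei with Ctla4 and in 5.19% and 3.82% of those without. These shares and those of the T-cell markers were not matched for depth or cluster. Whether Ctla4 and Cd28 go together in a nucleus was not tested.

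Within cardiomyocytes Ctla4 belonged to a particular cluster. The cluster with Hs3st5 and Myh7b among its leading genes, with 739 and 535 nuclei, had 169 and 67 of the 180 and 80 UMIs, at 105 CPM (89.7 to 122) and 61.3 CPM (47.5 to 77.8). The cluster led by Xirp2, Acta1 and Ckm, with 493 and 503 nuclei and 11.03% and 10.01% mitochondrial UMIs, had 14.8 and 15.5 CPM. The smallest, with 41 and 43 nuclei, had 0 UMIs in both libraries, where 3 UMIs would be 49.7 and 36.7 CPM.

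**Figure D3:**
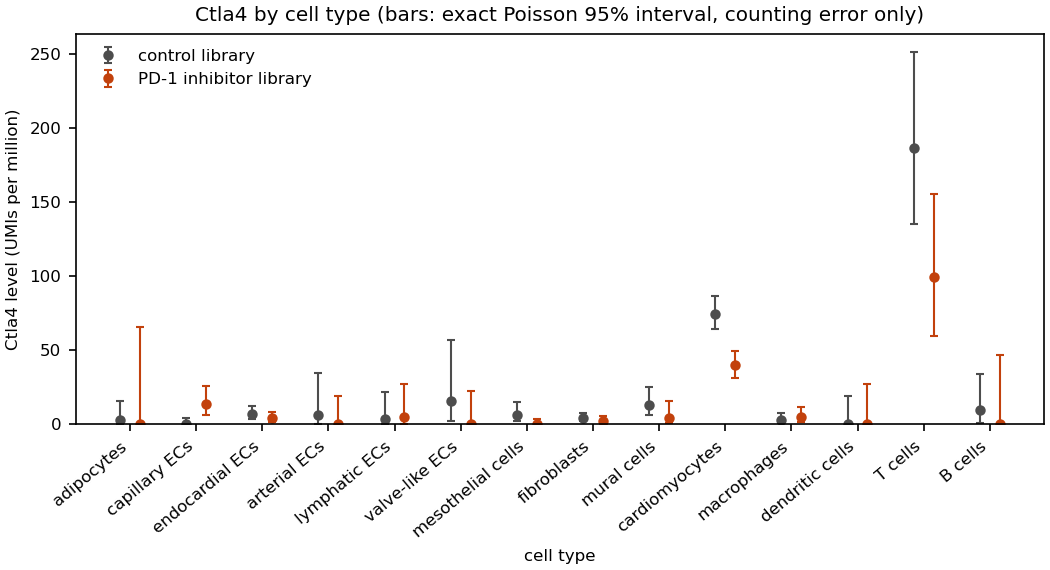
Ctla4 level in CPM (vertical axis) by cell type, with the control library in grey and the PD-1 inhibitor library in orange. Points are sums over all nuclei of a type and bars are exact Poisson intervals. T cells (186 and 99.3 CPM) and cardiomyocytes (74.5 and 39.7 CPM) held the 2 highest sums of UMIs, and both were lower with PD-1 inhibitor. Glial cells are not drawn. Their 70.3 CPM with PD-1 inhibitor was 1 UMI in 10 nuclei.

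Ctla4 was lower with PD-1 inhibitor in both cell types. The log2 ratio was -0.90 (-1.31 to -0.52) in cardiomyocytes and -0.89 (-1.77 to -0.10) in T cells. In T cells 1 control nucleus held 14 of the 43 UMIs. Without the nucleus of most UMIs in each library the ratio was -0.66 (-1.69 to 0.26) in T cells and -0.90 (-1.31 to -0.51) in cardiomyocytes. The share of T-cell nuclei with a Ctla4 UMI was 6.84% and 6.35%. In the Hs3st5 cluster the log2 ratio was -0.77 (-1.21 to -0.36), while the Xirp2 cluster had 11 and 13 UMIs and a ratio of 0.06 (-1.21 to 1.37). Cd28 gave -0.94 (-1.44 to -0.46) in cardiomyocytes and -0.01 (-0.68 to 0.65) in T cells. Unlike Cd274, Ctla4 over all nuclei moved little with the mix of cell types, from -0.85 (-1.17 to -0.55) to -0.80, but a mean over nuclei, which weights each nucleus equally, gave -0.47, no longer past 1.5-fold.

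Of the other inhibitory receptor genes, Lag3 was highest in T cells, most of the few Tigit UMIs with PD-1 inhibitor were in T cells, and Havcr2 was mainly found in myeloid cells. T cells had 14 and 20 Lag3 UMIs (60.6 and 105 CPM) in 10 and 12 nuclei, 18.4 and 35.1 times the level of all other nuclei. They held 26.4% and 40% of its UMIs. Fibroblasts had 11 and 13 UMIs (3.70 and 5.23 CPM) in 0.406% of nuclei of each library, and cardiomyocytes had 2 and 0. Control dendritic cells had 4 UMIs (20.6 CPM, 5.60 to 52.6), an interval that overlaps with that of control T cells (33.2 to 102). The log2 ratio was 0.77 (-0.27 to 1.88), and after thinning 10 and 8 UMIs were left and it was 0.003. Tigit had 2 and 8 UMIs in 2 and 7 T-cell nuclei, shares of 0.855% (0.104% to 3.05%) and 3.70% (1.502% to 7.48%). Over all other cell types it had 3 and 2 UMIs. In T cells Havcr2 had 9 UMIs in each library, in 8 and 4 nuclei.

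T-cell nuclei with at least 1 of the 5 receptor transcripts (Pdcd1, Ctla4, Lag3, Tigit, Havcr2) were about as frequent in both libraries, 33 of 234 (14.1%, 9.91% to 19.2%) and 29 of 189 (15.3%, 10.5% to 21.3%). Nuclei with 2 or more of them numbered 5 (2.14%, 0.697% to 4.92%) and 9 (4.76%, 2.20% to 8.85%), and these intervals overlap. All 3 control nuclei with Pdcd1 and 4 of the 8 with Pdcd1 in the PD-1 inhibitor library had another of the receptors. Foxp3, the defining factor of regulatory T cells, was found in 4 of 16 and 2 of 12 T-cell nuclei with Ctla4 and in 1 of 218 and 1 of 177 without. Among the T-cell nuclei with Pdcd1 it was found in 0 of 3 and 0 of 8. The 6 markers of natural killer cells summed to 95 and 184 UMIs in the T cells (412 and 962 CPM), of which Gzma gave 11 and 74, and their part in the receptor values was not tested.

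**Figure D4:**
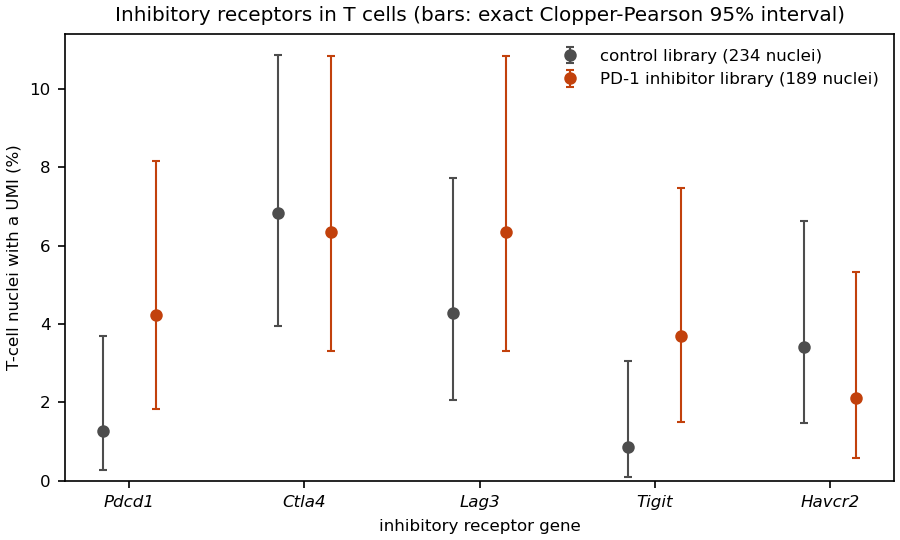
Share of T-cell nuclei (vertical axis, percent) with a UMI of each of 5 inhibitory receptor genes, for 234 nuclei of the control library (grey) and 189 of the PD-1 inhibitor library (orange). Bars are exact Clopper-Pearson intervals. Pdcd1 was at 1.28% and 4.23% and Tigit at 0.855% and 3.70%, and the intervals of the libraries overlap for all 5 genes.

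Havcr2 was found in dendritic cells and macrophages and was lower with PD-1 inhibitor in both. Macrophages had 57 UMIs (50.3 CPM, 38.1 to 65.2) and 23 UMIs (26.6 CPM, 16.9 to 39.9), and the log2 ratio was -0.90 (-1.69 to -0.20). For dendritic cells, with 23 UMIs (118 CPM, 74.9 to 177) and 6 UMIs (43.7 CPM, 16.0 to 95.1), it was -1.35 (-3.02 to -0.10). The dendritic level with PD-1 inhibitor was close to the 47.0 CPM of T cells there. In dendritic cells the interval held 0 without the nucleus of most UMIs (-1.47, -3.62 to 0.02), and after thinning the ratio was -0.39. The dendritic nuclei of the libraries differed in other markers. Their 6 mast cell markers summed to 8 and 63 UMIs (41.1 and 459 CPM), with 1 and 5 of the 6 detected, and their 10 dendritic markers to 2214 and 1856 CPM. The 12 macrophage markers summed to more, 5585 and 6558 CPM, against 13484 and 17970 CPM in macrophages. The 2 proliferation markers summed to 1392 and 1703 CPM, against 60.1 and 51.3 CPM over all nuclei. The part of these signals in the dendritic values of Havcr2, Cd80, Cd86 and Cd276 was not tested. Cardiomyocytes had 2 and 1 Havcr2 UMIs, or 0.828 and 0.497 CPM. Over all nuclei the log2 ratio was -0.82 (-1.35 to -0.32), and -0.71 at the same mix of cell types.

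Cd86 and Cd80, the genes of the ligands that CD28 and CTLA-4 share, were highest in macrophages, dendritic cells and B cells. Macrophages had 314 and 215 Cd86 UMIs (277 and 249 CPM), 19.6 and 31.6 times the level of all other nuclei, in 17.4% of nuclei of each library. Cardiomyocytes had a Cd86 UMI in 0.628% and 0.463% of nuclei. Dendritic cells had 45 and 35 UMIs (231 and 255 CPM). The share of dendritic nuclei with a Cd86 UMI was 14.2% and 27.7%, and 10.1% and 10.8% after thinning. The log2 ratios of macrophages, -0.16 (-0.41 to 0.10), and of dendritic cells, 0.14 (-0.54 to 0.81), had intervals that hold 0.

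Cd80 was at 73.3 and 72.9 CPM in macrophages (83 and 63 UMIs) and at 128 and 72.8 CPM in dendritic cells (25 and 10 UMIs). The macrophage log2 ratio was -0.01 (-0.50 to 0.48). The dendritic ratio was -0.78 (-2.04 to 0.29) and turned to 0.21 after thinning, on 8 and 5 UMIs. In fibroblasts, with 64 and 31 UMIs (21.5 and 12.5 CPM), it was -0.78 (-1.46 to -0.15). A Cd80 UMI was found in 1.91% and 1.47% of fibroblast nuclei and in 1.02% and 1.48% of cardiomyocyte nuclei, whose median depths were 1043.5 and 1086.5 UMIs in fibroblasts and 1406 and 1428 in cardiomyocytes. The fibroblast cluster led by Rgs17 and Fbn2 had 35 and 9 of these UMIs (18.8 and 7.13 CPM), a ratio of -1.34 (-2.64 to -0.31). In that led by Cilp and Cd248 there were 29 and 22 (30.6 and 21.2 CPM), and the interval held 0 (-0.52, -1.40 to 0.32). None of the 47 and 29 fibroblast nuclei with Cd80 had a Cd86 UMI. Only 0.868% and 0.412% of fibroblast nuclei without Cd80 had one, so 0 nuclei cannot be told apart from these shares. In macrophages 16 of 67 and 5 of 49 nuclei with Cd80 had one, against 17.0% and 17.9% of those without.

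In B cells the 2 ligand genes differed in direction. Cd86 had 40 UMIs in 27 of 176 nuclei (188 CPM) and 6 UMIs in 5 of 79 nuclei (76.5 CPM), a log2 ratio of -1.20 (-2.83 to -0.05). Cd80 had 19 UMIs in 14 nuclei (89.5 CPM) and 15 UMIs in 8 nuclei (191 CPM), a log2 ratio of 1.11 (0.02 to 2.15), and without the nucleus of most UMIs 0.93 (-0.35 to 2.11). These ratios rest on few nuclei, and of all genes tested in B cells 22.1% were past 1.5-fold lower and 18.8% higher.

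Cd276, a B7 family gene with no settled receptor, was the only one of the 10 with its largest UMI count in fibroblasts. Fibroblasts had 47 and 37 UMIs (15.8 and 14.9 CPM) in 1.58% and 1.78% of nuclei, against 0.628% and 0.648% of cardiomyocyte nuclei. Macrophages had 20 and 13 UMIs (17.7 and 15.04 CPM). Valve-like ECs had a higher level than fibroblasts in both libraries, on 8 UMIs in 5 of 83 nuclei (63.1 CPM, 27.2 to 124) and 7 UMIs in 5 of 77 nuclei (43.2 CPM, 17.4 to 89.0), 7.68 and 5.81 times that of all other nuclei. Dendritic cells had 1 and 6 UMIs (5.14 and 43.7 CPM). The log2 ratio was -0.08 (-0.75 to 0.57) in fibroblasts and -0.13 (-0.57 to 0.29) over all nuclei. The gene Gm10657 overlaps the start of Cd276 on the other strand.

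Among the 28 pairs of checkpoint gene and cell type with at least 20 UMIs summed over the libraries, in 10 cell types, more ratios were below 0 than above. The level was past 1.5-fold lower with PD-1 inhibitor in 13 pairs and past 1.5-fold higher in 2. Over all genes tested in these cell types, 11.6% of pairs were past it lower and 11.9% higher. These 2 shares weight each cell type by its number of tested genes, not by its checkpoint pairs. No share of all genes given here was matched to the checkpoint genes in UMIs, so how unusual the 13 pairs are was not tested. The background differed between cell types. Of all genes, 17.7% were past the fold lower and 15.7% higher in T cells, 17.8% and 16.9% in dendritic cells, 22.1% and 18.8% in B cells, and 25.2% and 23.1% in adipocytes. In macrophages it was 10.9% and 10.8%, in cardiomyocytes 10.4% and 10.6%, in fibroblasts 6.27% and 7.65%, and in mesothelial cells 10.5% and 9.07%. In endocardial ECs it was 7.32% and 9.59%, and in capillary ECs 10.3% and 13.2%. The pairs are not independent, since 10 of the 28 are Cd274. Of the 13 lower pairs, 9 had an interval below 0. The 2 higher pairs were Cd80 in B cells and Lag3 in T cells.

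**Figure D5:**
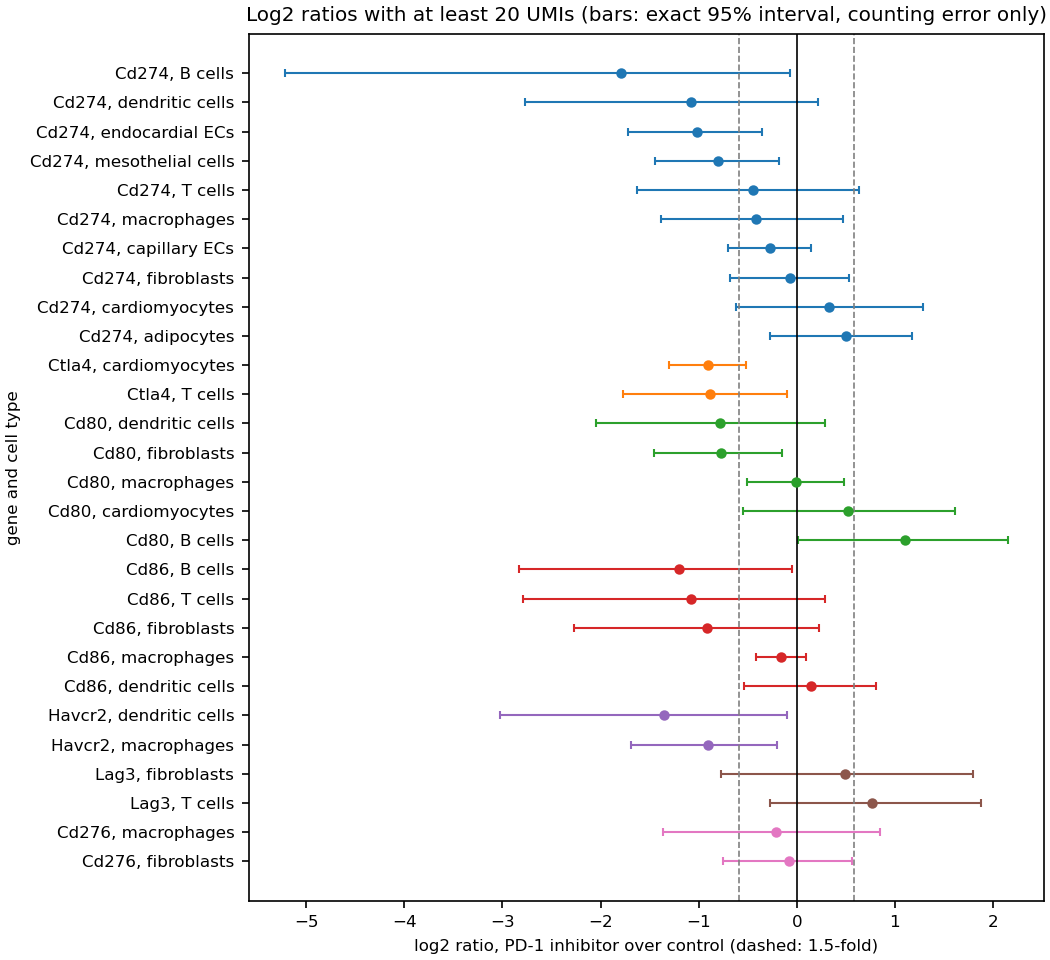
Log2 ratio of PD-1 inhibitor over control (horizontal axis) for the 28 pairs of checkpoint gene and cell type with at least 20 UMIs summed over the libraries, with exact intervals as bars and dashed lines at 1.5-fold. Colours mark genes. The ratio was below 0 in 21 pairs, and the narrowest interval past the fold was that of Ctla4 in cardiomyocytes (-1.31 to -0.52).

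Over all nuclei 8 genes had at least 20 UMIs, and 4 of them (Cd274, Pdcd1lg2, Ctla4 and Havcr2) were past 1.5-fold lower and 0 higher, where 7.31% and 6.47% of all 16327 genes were. The interval of Pdcd1lg2 held 0 (-0.63, -2.12 to 0.66). Cd86 (-0.46, -0.68 to -0.25) and Cd80 (-0.38, -0.68 to -0.09) had intervals below 0, and at the same mix of cell types their ratios were -0.28 and -0.14. Lag3 was at 0.15 (-0.44 to 0.74) and 0.29 at the same mix.

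Further genes of these pathways were counted in lists over all nuclei, where the median log2 ratio was -0.54 for the 8 checkpoint genes and -0.01 for all genes. Of 9 other genes of the B7 and CD28 family, 8 had enough UMIs, 3 were past 1.5-fold higher (6.47% of all genes) and 1 lower (7.31%), with a median of 0.11. The inhibitory ligand gene Vtcn1 (B7-H4) had 59 and 121 UMIs (1.26, 0.81 to 1.74) and was highest in mesothelial cells (62.5 and 104 CPM). The receptor gene Btla had 263 and 148 UMIs (-0.59, -0.90 to -0.30) and was highest in B cells (881 and 1403 CPM), of which there were 176 and 79 nuclei. The other 2 higher genes were Cd160 (10 and 21 UMIs) and Tnfrsf14 (11 and 16 UMIs). Vsir, which encodes the inhibitory protein VISTA, was highest in macrophages (277 and 294 CPM), and Icosl, the ligand gene of ICOS, in valve-like ECs (197 and 364 CPM), and both had a log2 ratio of 0.11 over all nuclei.

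Of 7 genes of the TIGIT family and its nectin ligands, 0 were past the fold higher and 1 lower (7.31% of all genes), with a median of 0.05. The lower one was Cd226, the activating counterpart of Tigit, with 288 and 162 UMIs (-0.59, -0.88 to -0.31) and its highest level in T cells (762 and 512 CPM). The nectin genes Nectin3 (0.10, -0.08 to 0.28) and Nectin2 (0.29, 0.08 to 0.50) and the poliovirus receptor gene Pvr (0.05, -0.15 to 0.24) were highest in fibroblasts, lymphatic ECs and valve-like ECs, in that order.

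Of 8 ligand genes of TIM-3 and LAG-3, 7 had enough UMIs and 0 were past the fold over all nuclei, with a median of 0.21. In macrophages 3 of 7 were past it higher (10.8% of all genes tested there). These were the MHC class II genes H2-Aa (2114 and 2515 UMIs, 0.64, 0.56 to 0.72) and H2-Ab1 (2342 and 2775 UMIs, 0.63, 0.55 to 0.71), whose products bind LAG-3, and Hmgb1 (28 and 52 UMIs, 1.27, 0.59 to 2.00). Of 10 genes of other inhibitory pairs 0 were past the fold over all nuclei, with a median of 0.02. Cd47 (0.15, 0.07 to 0.22) and Cd200 (0.22, 0.14 to 0.31), which encode ligands of myeloid inhibitory receptors, were the most abundant. Cd5 (-0.53, -0.99 to -0.08) and Nt5e (0.24, 0.03 to 0.45) differed most.

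Of 10 signalling genes downstream of PD-1 and CTLA-4, 0 were past the fold over all nuclei, with a median of -0.17. In T cells 9 were measured, 1 higher (Trat1, 20 and 29 UMIs, 0.80, -0.06 to 1.71) and 1 lower (Prkcq, 169 and 89 UMIs, -0.65, -1.04 to -0.28), where 15.7% of all genes were past the fold higher and 17.7% lower. Ptpn11, which encodes the phosphatase SHP-2 recruited by PD-1, had 798 and 703 UMIs over all nuclei (0.05, -0.10 to 0.20) and Pik3r1 2076 and 1545 (-0.19, -0.29 to -0.10). On the route from interferon gamma to PD-L1 0 of 10 genes were past the fold over all nuclei, with a median of 0.03. Ifng itself was seen almost only in T cells, with 16 and 19 UMIs there (0.51, -0.52 to 1.57) of 18 and 20 in all. The interferon receptor gene Ifngr1 (0.21, 0.12 to 0.29) and the kinase gene Jak1 (0.09, 0.00 to 0.18) were the most abundant. Jak2 (-0.28, -0.41 to -0.16) and Cmtm4, whose product stabilises PD-L1 (379 and 223 UMIs, -0.53, -0.78 to -0.29), differed most. In T cells 8 genes of this route were measured, with a median of 0.35. Past the fold, 2 were higher and 0 lower, where 15.7% and 17.7% of all genes were. Jak1, with 97 and 129 UMIs (0.68, 0.29 to 1.08), was among the higher ones. In ECs 9 genes of the route were measured, and 1 was past the fold lower (6.55% of all genes there). It was Cmtm4, with 98 and 60 UMIs (-0.66, -1.16 to -0.19).

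Genes with levels most like those of each checkpoint gene were sought among 11475 genes over 13 cell types and both libraries, 26 points, by Pearson correlation of log2(CPM + 1). The points of a cell type share their nuclei between genes, and the values are a description. For Cd274 they were Snx25 (0.82), Lipe (0.80), which encodes hormone-sensitive lipase of adipocytes, and Parp4 (0.77). For Ctla4 they were Gzmm (0.81), Cd28 (0.73) and Slc25a42 (0.69). For Cd80 they were Vav1 (0.92), Rasgrp4 (0.92) and Irf4 (0.91), and for Cd86 they were Dock8 (0.93), Mast3 (0.92) and Cd53 (0.92). Vav1, Irf4, Dock8 and Cd53 are known as genes of leukocytes. The other genes had under 200 UMIs and were not compared.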

How the data were processed

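The authors deposited UMI counts, whole numbers that were not normalized, for each gene in each nucleus of 1 control and 1 PD-1 inhibitor library, which were made with a GEXSCOPE kit for nuclei. The submitters' processing notes name GRCm38 and mm10; the aligner, the counter, its use of strand and the calling of nuclei are not given in the sources used here. Cell names were rebuilt here, and values can differ from the study's for that reason.

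Nuclei needed 200 detected genes, and those above 20% of mitochondrial UMIs (83 and 15) were removed. Scrublet called 632 (6.25%) and 333 (4.19%) doublets, which were removed, and scanpy 1.11.5 with Leiden at resolution 1 clustered the rest on 30 principal components of 2000 scaled variable genes and 15 neighbours, with the 10 checkpoint genes left out. A cluster was named from the list with the largest share of detected markers (a UMI in 5% of nuclei and 2-fold the other nuclei, at least 3 markers). Between macrophage and dendritic names the 10 leading genes decided. Clusters had been looked at before that rule and these thresholds were chosen. The 1 cluster of proliferating nuclei (32 and 13) stayed unnamed. The 12060929 and 10254498 UMIs kept were summed by type and library. Intervals are exact Poisson, Clopper-Pearson or conditional binomial ones at 95%. Beside 0 UMIs stands the value of 3 UMIs. Thinning to 500 UMIs left out 0 nuclei. The steps were tested on simulated data. Alternatives were other filters, resolutions, totals, centring, thinning, a mean over nuclei and another fold and minimum. The same mix of cell types or of EC subtypes and the removal of the nucleus of most UMIs were added after seeing the data.

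The 10 genes and all lists were chosen with earlier results of these data known. Named were all 10 genes, in each further list the 2 genes with the most UMIs and the 2 with the largest absolute log2 ratio over all nuclei among those with at least 50 UMIs, and 3 genes most like each checkpoint gene with at least 200 UMIs. Cd28, Icos, Gzma, Ifng, Foxp3, Cd160 and Tnfrsf14 were named after their values were seen. Some genes are not reported here.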

Additional observations from a re-analysis of the deposited data

How the results depend on the processing

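No paired analysis was possible because each group has 1 library. Of the log2 ratios recomputed under alternatives, 439 stayed inside the interval of the reported value, 7 left it and 2 turned, and of the levels 175 stayed and 3 left it. Of the shares of nuclei 11 stayed and 9 left, all of the latter under thinning. Thinning to 500 UMIs turned Cd274 in mesothelial cells to 0.13 and Cd80 in dendritic cells to 0.21, took Pdcd1lg2 over all nuclei to -3.59 and in B cells of the PD-1 inhibitor library to 0 CPM, and took Havcr2 in dendritic cells of that library to 96.4 CPM. The same mix of cell types took Cd274 over all nuclei to -0.21, a mean over nuclei took Ctla4 over all nuclei to -0.47, and a minimum of 500 genes took Lag3 in control T cells to 25.2 CPM. The cause of these shifts was not tested, except that thinning leaves fewer UMIs. The 13 pairs lower and 2 higher became 6 and 1 at a fold of 2, 6 and 0 with at least 50 UMIs (13 pairs tested), 5 and 0 after thinning (13 pairs) and 16 and 3 with doublets kept (33 pairs). Centring left them at 13 and 2, and without the nucleus of most UMIs they were 14 and 2. Depth limits Pdcd1, Tigit and Pdcd1lg2 most, with at most 23 UMIs each in both libraries together.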

Other observations

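The nuclei removed before the analysis also held molecules of these genes. The 715 removed control nuclei had 65 Cd86, 56 Cd274 and 23 Ctla4 UMIs among 1116596 UMIs, and the 348 removed nuclei of the PD-1 inhibitor library had 19, 18 and 13 among 620750. Pdcd1 had 3 and 1 UMIs in them.

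In the arterial ECs, Cd274 had 4 and 10 UMIs (25.0 and 52.1 CPM), a log2 ratio of 0.96 (-0.73 to 3.19). Capillary ECs had 0 Ctla4 UMIs in 989 control nuclei, which allows a share of nuclei with a UMI of up to 0.303% at the floor of 3 counts, and 9 UMIs in 8 of 692 nuclei of the PD-1 inhibitor library. No Cd80 UMI was found in the adipocytes of either library, in 154 and 16 nuclei, which allows a share with a UMI of up to 1.95% and 18.8%. Cd80 was not detectable in adipocytes at this depth.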
